A study of Mus musculus with 2 samples.

Results

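The 10 genes of oxygen sensing and of the hypoxia response considered here were *Hif1a*, *Epas1*, *Arnt*, *Egln1*, *Egln3*, *Vhl*, *Bnip3*, *Adm*, *P4ha1* and *Ankrd37*. They were chosen by name, for their place in the pathway of the hypoxia-inducible factors (HIFs), and every probe set annotated to one of these symbols alone was taken. This gave 23 probe sets for the 10 genes, of 34945 probe sets with a single symbol and 18193 genes in all. Signals came from perigonadal white adipose tissue (WAT) of PeriA Tg mice and WT mice, hybridised to 2 Affymetrix mouse genome arrays, 1 per genotype. The Tg mice were heterozygous females on the C57BL/6 background that carry a human perilipin A (PeriA) transgene under the *aP2* promoter/enhancer, and the WT mice were female littermates without it. Both groups were 30 weeks old, had been fed a high fat diet (HFD, 60% of calories from fat) for 25 weeks and were fasted overnight. The *aP2* promoter is that of *Fabp4*, a gene active in adipocytes and, as background, also in macrophages, and the signal of the transgene itself was not analysed here. RNA of 3 mice was pooled for each array, so spread between mice is not known and the genotypes could not be compared by a test.

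HIFs are transcription factors made of an oxygen-regulated alpha subunit (HIF-1α, encoded by *Hif1a*, or HIF-2α, encoded by *Epas1*) and a constant beta subunit (encoded by *Arnt*). When oxygen is at hand, prolyl hydroxylases of the EGLN family mark the alpha subunit, the von Hippel-Lindau protein (encoded by *Vhl*) binds the mark, and the alpha subunit is degraded. When oxygen is short the alpha subunit is spared, and genes for glycolysis, vessel growth, matrix and mitochondrial turnover are induced. Enlarged fat depots of obese mice have been described as poorly oxygenated. Much of the control of HIF is thus on the protein, which arrays do not measure.

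HIFs bind DNA at a short core, ACGTG or GCGTG, so the promoters of the genes were searched for it. The search covered both strands (CACGT and CACGC on the strand of the gene), from 250 bases before to 50 bases after the start of transcription, in RefSeq sequence of the build GRCm38.p6. A promoter was listed for 9 of the 10 genes, *Epas1* being the one without. Of these 9 promoters, 8 held at least 1 core and 4 held at least 3. Among all 32851 promoters of the table, 43.8% held at least 1 core and 8.93% held at least 3. These shares are per promoter and include genes that did not pass the signal filter defined further on. Counted per gene among those that passed, 6335 genes had at least 1 core, 1776 had at least 3 and 3022 had none. Cores were thus more common among genes that passed than the shares per promoter show. *Bnip3* had 5 matches, *Ankrd37* had 4, *Hif1a* and *P4ha1* had 3 each, *Egln1* and *Adm* had 2 each, *Arnt* and *Egln3* had 1 each, and *Vhl* had none in this window. The palindrome CACGTG counts once on each strand, as it does in *Bnip3* and *Hif1a*. Stretches of 60 bases are shown for 3 targets of HIF and for the 3 genes that were higher on the Tg array, so that the matches can be read beside the signals, with the cores in capitals.
*Bnip3* promoter window, chr7:138909583-138909642, minus strand: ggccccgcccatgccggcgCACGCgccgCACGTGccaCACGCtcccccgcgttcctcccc
*Adm* promoter window, chr7:110627557-110627616, plus strand: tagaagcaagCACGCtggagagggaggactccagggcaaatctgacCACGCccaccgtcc
*P4ha1* promoter window, chr10:59323124-59323183, plus strand: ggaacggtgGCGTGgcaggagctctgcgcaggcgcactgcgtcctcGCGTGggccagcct
*Egln1* promoter window, chr8:124949291-124949350, minus strand: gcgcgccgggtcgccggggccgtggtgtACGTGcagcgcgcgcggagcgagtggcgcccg
*Egln3* promoter window, chr12:54204055-54204114, minus strand: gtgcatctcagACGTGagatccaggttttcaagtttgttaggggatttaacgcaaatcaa
*Arnt* promoter window, chr3:95434306-95434365, plus strand: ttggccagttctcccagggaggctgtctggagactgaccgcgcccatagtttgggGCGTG
A match describes these letters only, and binding was not measured. The 3 genes higher on the Tg array had 1 or 2 matches each, whereas the 4 promoters with at least 3 matches belonged to *Bnip3*, *Hif1a* and *P4ha1*, which were not over the threshold of 0.3 defined next, and to *Ankrd37*, which did not pass the signal filter. Over all genes that passed this filter, also defined next, the median signal log ratio was 0.029 in the 6335 genes with at least 1 core in a promoter and 0.0077 in the 3022 genes with none. The share over 0.3 was 15.9% with a core and 17.8% with none, and the share under -0.3 was 15.5% with a core and 19.2% with none.

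The signal log ratio is log2 (Signal of Tg/Signal of WT), so that a value over 0 stands for a higher signal on the Tg array. A probe set passed the filter if it reached 98.2 (the median over both arrays) on at least 1 array, and ratios over 0.3 or under -0.3 were counted, which is the threshold of the methods. Each gene is represented by the probe set with the highest mean log2 signal, called brightest here. With 1 array per genotype, these counts describe 2 arrays. Of the 10 genes, 9 passed the filter, and *Ankrd37* did not. *Egln3*, *Egln1* and *Arnt* were over 0.3, and no gene was under -0.3. The remaining 6 were between both thresholds, with *Vhl* the lowest at -0.23. Among all 11587 genes that passed, 16.6% were over 0.3 and 16.9% were under -0.3. The median signal log ratio of the 9 genes was -0.039, beside 0.022 for all genes that passed. In bulk tissue, fewer cells of a type and less RNA per cell cannot be told apart, and this holds for every value given here.

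**Figure D1:**
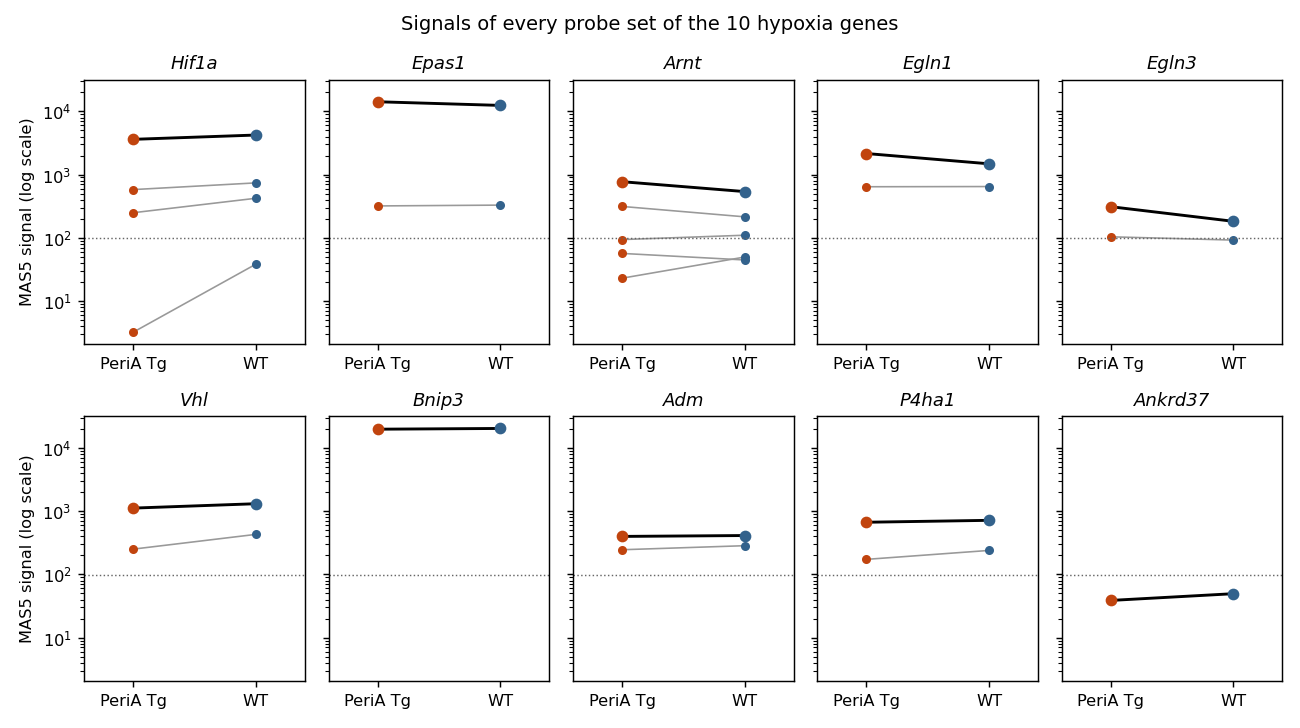
MAS5 signal (log scale) of every probe set of the 10 genes on the PeriA Tg array and on the WT array. Each line joins the 2 signals of 1 probe set, the thick line is the brightest probe set of the gene, and the dotted line is the filter at 98.2. The thick lines of *Arnt*, *Egln1* and *Egln3* are higher at Tg, and both points of *Ankrd37* lie under the filter.

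Among the genes of the HIF subunits, *Arnt* differed most between the arrays, whereas both alpha subunits were within the thresholds by their brightest probe sets. *Arnt* had a signal of 771.3 on the Tg array and 538.0 on the WT array (1437042_at), a signal log ratio of 0.52. A probe set that may match several transcripts (1419996_s_at) gave 313.1 on the Tg array and 214.4 on the WT array, a signal log ratio of 0.55. A dimmer probe set (1421721_a_at) went the other way, with 93.6 on the Tg array and 109.6 on the WT array, and it passed the filter by the WT signal alone. The other pair of *Arnt* probe sets was under the filter, with signals of 56.5 and 22.9 on the Tg array and 44.5 and 49.5 on the WT array, and no direction was read from it. *Arnt* was thus higher on the Tg array by 2 of the 3 probe sets that passed.

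*Hif1a* was lower on the Tg array by all 3 of its passing probe sets. The brightest (1427418_a_at) had a signal of 3612.3 on the Tg array and 4223.0 on the WT array, a signal log ratio of -0.23, which is inside the thresholds. Further down in brightness, 1416035_at gave 578.3 on the Tg array and 738.4 on the WT array, a signal log ratio of -0.35. 1448183_a_at gave 248.9 on the Tg array and 421.4 on the WT array, a signal log ratio of -0.76. These 3 probe sets shared the direction, and the difference was wider in each dimmer one. No direction was read from 1431981_at, whose signals of 3.2 on the Tg array and 38.1 on the WT array were both under the filter.

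*Epas1*, whose product is abundant in adipocytes and endothelial cells, had a pair of probe sets with opposite signs, both within the thresholds. The signal of 1435436_at was 14208.4 on the Tg array and 12439.0 on the WT array, a signal log ratio of 0.19. The signal of 1449888_at was 318.9 on the Tg array and 328.5 on the WT array, a signal log ratio of -0.043. No difference past the threshold was thus read for *Epas1* by either probe set.

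The prolyl hydroxylases *Egln3* (PHD3) and *Egln1* (PHD2) had the highest signal log ratios of the 10 genes. *Egln3*, which is itself induced by HIF, had a signal of 309.9 on the Tg array and 181.9 on the WT array (1418649_at), a signal log ratio of 0.77 or 1.70-fold. Its dimmer probe set (1418648_at) had 103.5 on the Tg array and 91.8 on the WT array, a signal log ratio of 0.17, and passed by the Tg signal alone. Both probe sets were higher on the Tg array, and only the brighter one was past 0.3. *Egln1*, regarded as the main oxygen sensor of the family, had 2152.9 on the Tg array and 1480.2 on the WT array (1423785_at), a signal log ratio of 0.54 or 1.45-fold. Its other probe set (1451110_at) gave 641.6 on the Tg array and 646.3 on the WT array, a signal log ratio of -0.011. The difference in *Egln1* thus rested on 1 of its 2 probe sets, although both are well above the filter.

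*Vhl*, the recognition subunit of the ligase that degrades the hydroxylated alpha subunit, was lower on the Tg array. Its brighter probe set (1434708_at) had 1122.4 on the Tg array and 1316.5 on the WT array, a signal log ratio of -0.23. The dimmer (1421071_at) had 251.6 on the Tg array and 430.5 on the WT array, a signal log ratio of -0.77. Only the dimmer probe set was under -0.3, so that *Vhl* and the hydroxylase genes differed in sign by their brightest probe sets.

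The genes grouped here as targets of HIF were *Bnip3*, *Adm*, *P4ha1* and *Ankrd37*, a group that leaves out the HIF-induced *Egln3*. The 3 of them that passed were within the thresholds by their brightest probe sets. *Bnip3*, a mitochondrial outer membrane protein of mitophagy, had a signal of 19917.1 on the Tg array and 20456.3 on the WT array (1422470_at, its only probe set), a signal log ratio of -0.039. *Adm*, the gene of the vasodilator peptide adrenomedullin, had 400.0 on the Tg array and 413.0 on the WT array by 1447839_x_at, a signal log ratio of -0.046. The probes of that set may match other transcripts, and 1416077_at gave 246.1 on the Tg array and 285.1 on the WT array, a signal log ratio of -0.21. None of these values was past the threshold.

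*P4ha1* encodes a catalytic subunit of collagen prolyl 4-hydroxylase, which acts on collagen and not on HIF. It had 670.4 on the Tg array and 718.7 on the WT array by 1452094_at, a signal log ratio of -0.10, and 173.3 on the Tg array and 240.0 on the WT array by 1426519_at, a signal log ratio of -0.47. As in *Hif1a* and *Vhl*, the dimmer probe set was under -0.3 and the brighter was not. *Ankrd37*, an ankyrin repeat gene known as a HIF-1 target from human cells, had 38.8 on the Tg array and 49.6 on the WT array (1436538_at). Both signals were under the filter, so no direction was read. By role, the median signal log ratio was 0.19 for the 3 subunits, 0.54 for the 3 genes of sensing and degradation and -0.046 for the 3 targets that passed.

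**Figure D2:**
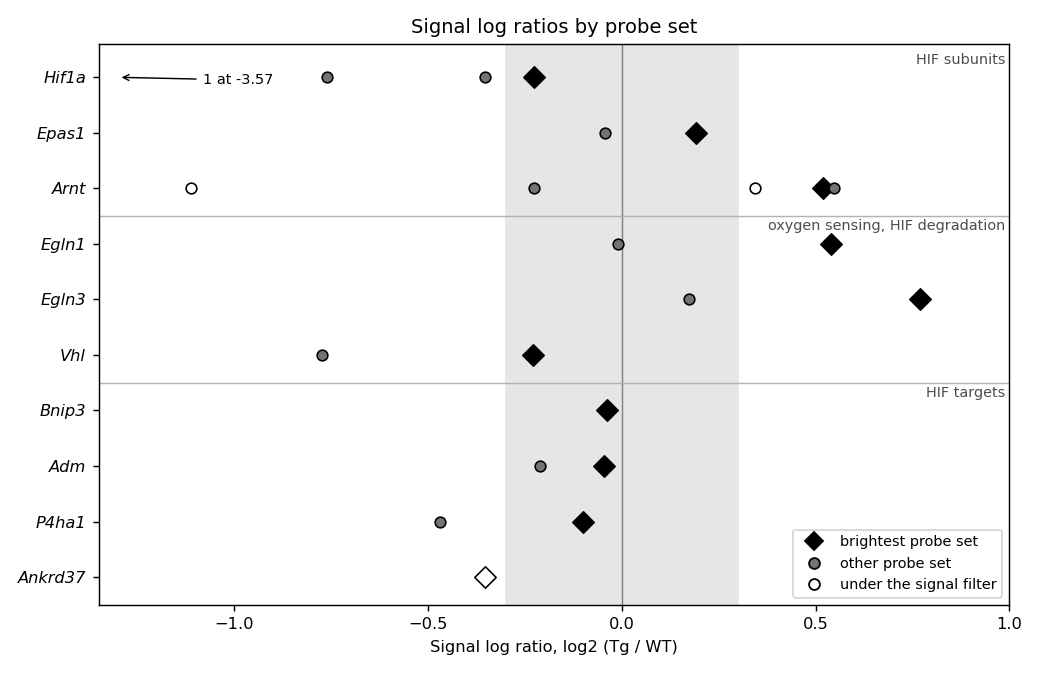
Signal log ratio of Tg over WT (x axis, log2) of each probe set of the 10 genes, grouped by role. Diamonds are the brightest probe sets, circles the others, open symbols are under the filter, and the grey band runs from -0.3 to 0.3. Only *Arnt*, *Egln1* and *Egln3* have a diamond to the right of the band, and 1 *Hif1a* probe set at -3.57 lies beyond the axis.

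Probe sets of 1 gene read the same RNA pools, and in these genes they often disagreed in size. Of the 23 probe sets, 19 passed the filter, with 4 over 0.3, 4 under -0.3 and 11 between. Among all 20393 probe sets with a single symbol that passed, 16.9% were over 0.3 and 21.9% under -0.3. The 4 under -0.3 belonged to *Hif1a* (a pair), *Vhl* and *P4ha1*, none of them a brightest probe set. The filter left 2 or more probe sets in 8 of the genes, and the second-brightest had the lower signal log ratio in 7, *Arnt* being the exception, with a median difference of -0.30. Over all 5260 such genes of the arrays this was so in 58.1%, with a median difference of -0.069. The signal log ratios within a gene had a pooled SD of 0.41 over these 5260 genes. This spread is taken around the mean of each gene and covers neither mice nor hybridisations. It is thus no measure of how far a gene value lies from 0. The second-brightest probe set differed from the brightest by -0.60 in *Egln3*, -0.55 in *Egln1* and 0.027 in *Arnt*.

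The arrays also differed in their control probe sets. In the poly-A controls, the signal log ratio of the probe set nearer the 5′ end was lower than that nearer the 3′ end in 8 of the 8 pairs that passed the filter, which are 4 spiked transcripts each read by 2 pairs, with a median difference of -0.55 (from -0.80 to -0.22). A further pair, AFFX-TrpnX, did not pass and had a difference of 0.44. In the hybridisation controls the median difference was -0.0050 over 8 pairs, and in mouse control transcripts it was -0.21 over the 4 pairs that passed, of which 3 were below 0 and that of 18S rRNA was 0.31. The places of the probe sets of *Egln1*, *Egln3*, *Vhl*, *Hif1a* and *P4ha1* along their transcripts were not used here, and the part of this difference in their values was not tested.

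Set among all genes that passed, *Egln3* stood at percentile 97.8 of the signal log ratios, *Egln1* at 94.6 and *Arnt* at 94.1. *Hif1a* and *Vhl* stood at 22.0 and 21.5, and the others between 34.0 and 72.4. Dim genes spread more than bright ones. With the genes split by mean signal into 10 bins of like size, 19.6% of the 1158 genes in the bin of *Egln3* were over 0.3, beside 14.3% in the bin of *Arnt* and 13.7% in that of *Egln1*. Ratios over 0.3 were thus more common among genes as dim as *Egln3* than among genes as bright as *Egln1*.

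**Figure D3:**
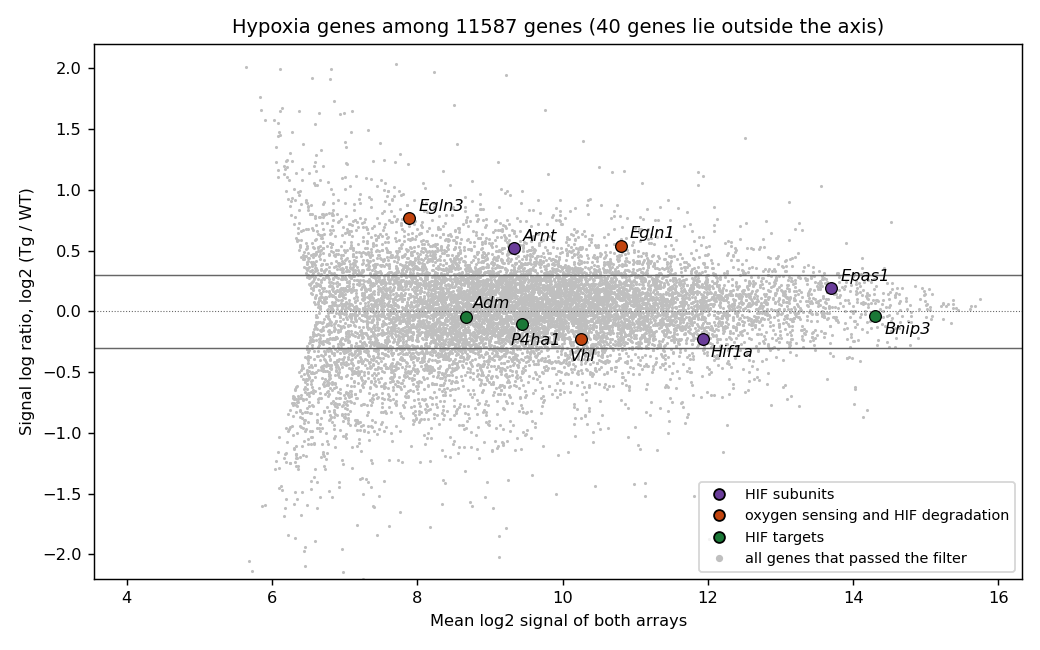
Signal log ratio of Tg over WT (y axis, log2) against mean log2 signal over the pair of arrays (x axis) for the 11587 genes that passed the filter (grey), of which 40 lie outside the axis. The 9 hypoxia genes that passed are coloured by role, and the lines mark 0.3 and -0.3. *Egln3*, *Arnt* and *Egln1* lie above the upper line, and the other 6 lie between the lines.

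The other genes of the HIF system were taken from a list of 14, of which 13 passed, with 5 over 0.3, none under -0.3 and a median signal log ratio of 0.065, beside 16.6% of all genes over 0.3 and 16.9% under -0.3. With the second-brightest probe set, 3 were over 0.3 and 1 was under -0.3, beside 17% and 25.8% of all genes. That setting leaves out genes with 1 probe set, among them *Rbx1* and *Ep300*. With the filter at 470.5, 3 were over 0.3, beside 14.1% of all genes. *Rbx1*, the RING subunit of the VHL ligase, had 138.1 on the Tg array and 88.9 on the WT array (signal log ratio 0.64), and passed by the Tg signal alone. *Siah1a*, a ligase that acts on the EGLN proteins, had 1339.0 on the Tg array and 884.4 on the WT array (0.60), with another probe set at -0.043. *P4htm*, a transmembrane prolyl hydroxylase, had 190.6 on the Tg array and 138.1 on the WT array (0.46). The coactivator *Ep300* (0.45) and the scaffold *Cul2* of the VHL ligase (0.41) completed the 5 genes over 0.3. The third EGLN gene, *Egln2*, had 711.8 on the Tg array and 716.2 on the WT array (-0.0089), and *Hif1an*, the asparaginyl hydroxylase that blocks the coactivator, had 271.9 on the Tg array and 271.2 on the WT array (0.0037). The oxygen-dependent hydroxylases thus included both genes over 0.3 and genes at about equal signal. *Hif3a*, a further alpha subunit, had 211.0 on the Tg array and 183.2 on the WT array (0.20). The lowest of the list were the HIF antagonist *Cited2* (-0.088, another probe set -0.60), the ligase *Siah2* (-0.040, another probe set 0.75) and *Elob* (-0.037, another probe set 0.27), the elongin partner of VHL.

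HIF targets outside the 10 genes differed in both directions. Of 17 genes of glucose transport and glycolysis, 13 passed, with 2 over 0.3, 1 under -0.3 and a median of 0.072, beside the same 16.6% and 16.9% of all genes. With the second-brightest probe set, 0 were over 0.3 and 2 under -0.3, beside 17% and 25.8% of all genes. *Hk2* and *Pfkfb4*, each with 1 probe set, have no value in that setting. With the median over probe sets, 1 was over 0.3 and 2 were under -0.3, beside 14.8% and 19.5% of all genes. *Pfkfb3*, which makes the activator of phosphofructokinase, had 7116.0 on the Tg array and 4363.3 on the WT array (0.71), with its other probe set at -0.11. *Hk2*, the hexokinase of insulin-responsive tissue, had 2030.3 on the Tg array and 1379.3 on the WT array (0.56). *Pfkfb4* had 531.4 on the Tg array and 725.0 on the WT array (-0.45), opposite in sign to its paralogue. *Pdk1*, which restrains pyruvate dehydrogenase, was at 0.17, the glucose transporter *Slc2a1* at 0.17, *Ldha* at -0.10 and *Tpi1* at -0.29.

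Of 30 other targets, 23 passed, with 5 over 0.3, 5 under -0.3 and a median of 0.087. *Car9*, a membrane carbonic anhydrase widely used as a hypoxia marker, had 51.0 on the Tg array and 142.7 on the WT array (-1.48), and passed by the WT signal alone. *Ndufa4l2*, which restrains respiration, had 192.6 on the Tg array and 358.5 on the WT array (-0.90), and the histone demethylase *Kdm4b* was at -0.43. The lipoprotein receptor *Vldlr* (-0.40) and the collagen crosslinker *Lox* (-0.36) completed the 5 genes under -0.3. At the other end, the hormone *Stc1* had 113.6 on the Tg array and 76.8 on the WT array (0.56) and passed by the Tg signal alone. The glycogen branching enzyme *Gbe1* (0.46) and the repressor *Bhlhe40* (0.43) were next, before the vasoconstrictor *Edn1* (0.43) and *Ndrg1* (0.31), whose 5 passing probe sets ranged down to -0.49. *Vegfa*, the main angiogenic target, had 1691.4 on the Tg array and 1466.4 on the WT array (0.21), with another probe set at -0.39. By the brightest probe sets, the targets over and under the thresholds were 5 of 23 each, beside 16.6% and 16.9% of all genes. By the median over probe sets, 4 were over 0.3 and 8 under -0.3, beside 14.8% and 19.5% of all genes. By the second-brightest probe set, 0 were over 0.3 and 6 under -0.3, beside 17% and 25.8% of all genes. That setting leaves out genes without a second passing probe set, so its counts do not cover the same genes. *Stc1*, *Gbe1*, *Bhlhe40*, *Edn1*, *Car9*, *Ndufa4l2* and *Kdm4b* are among those left out. *Bnip3l*, the paralogue of *Bnip3*, has probe sets only in common with a pseudogene and was given no value.

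**Figure D4:**
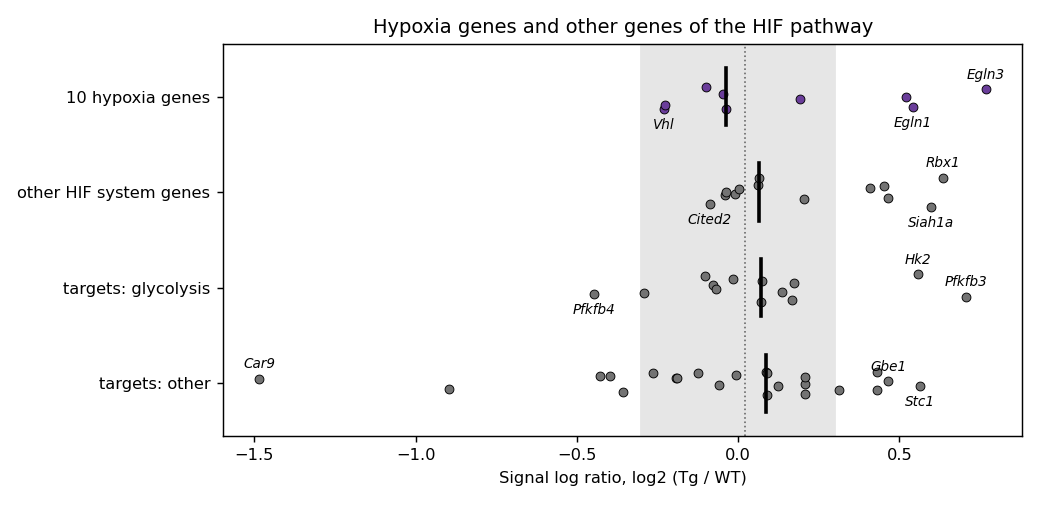
Signal log ratios of Tg over WT (x axis, log2) of the genes that passed the filter among the 10 hypoxia genes, the other HIF system genes and the other HIF targets. Each point is 1 gene, moved up or down at random for legibility, black bars are the medians (-0.039, 0.065, 0.072 and 0.087), the dotted line is the median of all genes (0.022) and the grey band runs from -0.3 to 0.3. The medians of the 4 lists lie near that of all genes, with single genes on both sides.

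The partners of 2 of the targets were also read. The receptor of adrenomedullin is made of *Calcrl*, which had 544.8 on the Tg array and 594.8 on the WT array (-0.13), and a RAMP protein. *Ramp2* had 1804.6 on the Tg array and 1967.5 on the WT array (-0.12), *Ramp1*, which makes the receptor of CGRP instead, had 240.8 on the Tg array and 445.1 on the WT array (-0.89), and *Ramp3* was under the filter. The partners of *P4ha1* were *P4hb*, the beta subunit, with 9675.2 on the Tg array and 11030.3 on the WT array (-0.19), and the alternative subunit *P4ha2* with 483.7 on the Tg array and 455.1 on the WT array (0.088). *P4ha3* was under the filter. *Adm* with the receptor genes of its own, *Calcrl* and *Ramp2*, and *P4ha1* with *P4hb* and *P4ha2* were thus within the thresholds by their brightest probe sets.

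Cell type markers were read beside these genes because WAT holds several cell types. Adipocyte markers had a summed signal of 220761 on the Tg array and 211613 on the WT array (9 of 9 with a value passed, *Fabp4* the brightest, median signal log ratio 0.094). Of these, *Lipe* was over 0.3 (0.53) and *Lep* under -0.3 (-0.64). Brown adipocyte markers had a sum of 27465 on the Tg array and 4792 on the WT array, with 7 of 7 over 0.3 (*Cox8b* the brightest, median 3.09). Of these, *Elovl3* (61.5 on the WT array) and *Dio2* (25.3 on the WT array) passed by the Tg signal alone. The median is the value of *Elovl3*. Endothelial markers had a sum of 9636 on the Tg array and 10213 on the WT array (10 of 10 passed, *Esam* the brightest, median -0.083). Only *Tie1* (-0.72) was past a threshold among them. Macrophage markers had a sum of 39070 on the Tg array and 47070 on the WT array (10 of 10 passed, 4 under -0.3, *Lyz2* the brightest, median -0.26). The 4 were *Cd68* (-1.13), *Itgam* (-1.22), *Itgax* (-1.35) and *Trem2* (-1.85), and the other 6 were between the thresholds. The sums of fibroblast (*Dcn* the brightest), mesothelial (*Upk3b*) and smooth muscle markers (*Acta2*) differed by at most 0.19 on the log2 scale, while 2 of 7 skeletal muscle markers (*Acta1* the brighter) and 1 red blood cell marker (*Alas2*) passed. *Pvalb*, the dimmer of these skeletal muscle markers, was at -2.98 and passed by the WT signal alone. Smooth muscle and pericyte markers had a median of -0.24, with 2 of 7 under -0.3. Of the fibroblast and progenitor markers 1 was over 0.3 and 1 under -0.3, and 1 mesothelial marker was over 0.3. With 2 arrays, any gene or marker list that is higher or lower on the Tg array moves with any other. The part of these markers in the values of the 10 genes was not tested.

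The processing of the signals bore on these genes mainly through the choice of the probe set. *Egln3*, *Egln1* and *Arnt* stayed over 0.3 after median centring, quantile normalization and loess, with signal log ratios from 0.80 to 0.85 for *Egln3*, 0.53 to 0.62 for *Egln1* and 0.53 to 0.60 for *Arnt*. In these settings 24.9%, 18.1% and 17.4% of all genes were over 0.3, in that order. Centring each array on its median moved the median of all genes to 0.11 and the share of genes over 0.3 among those past either threshold to 65.6%, beside 49.6% for the signals as deposited. *Bnip3* and *Adm* changed sign under this centring, to 0.045 and 0.038, and stayed within the thresholds. With the second-brightest probe set, only *Arnt* was over 0.3, and *Hif1a*, *Vhl* and *P4ha1* were under -0.3, among the 8 genes with a value. *Bnip3* and *Ankrd37* have no value in that setting. Of all genes, 17% were then over 0.3 and 25.8% under -0.3, against 16.6% and 16.9% with the brightest probe set.

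**Figure D5:**
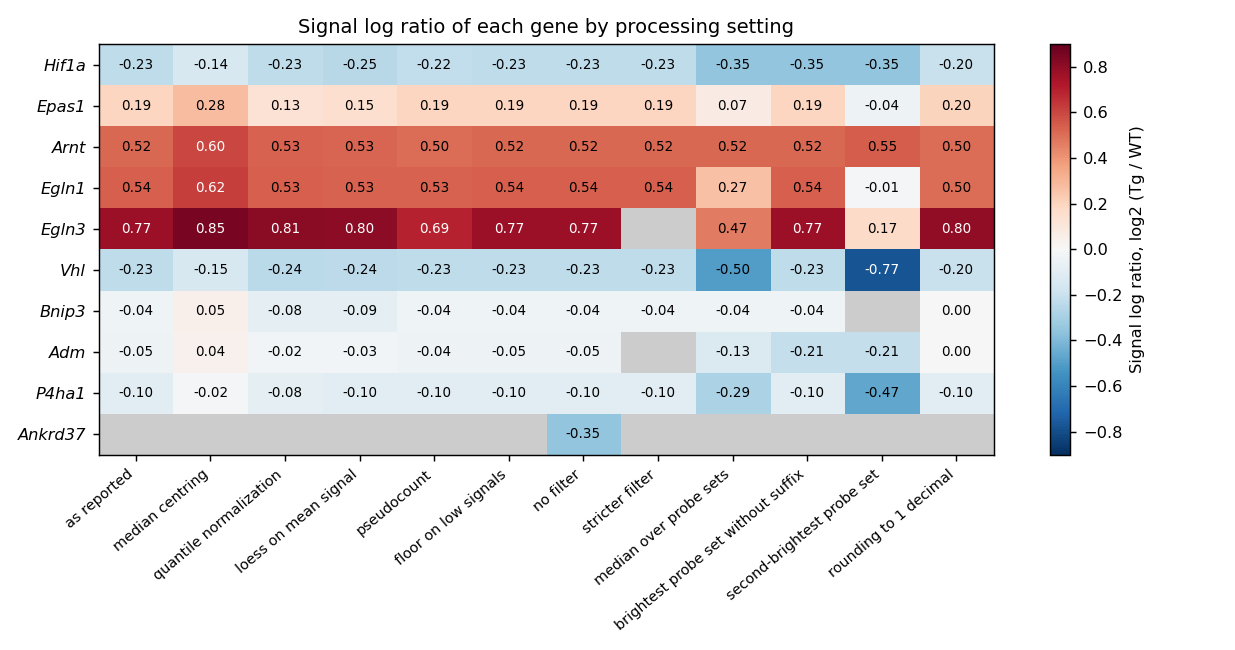
Signal log ratio of Tg over WT (colour and number, log2) of each of the 10 genes (rows) under each processing setting (columns). Grey cells have no value, because the gene did not pass the filter or has no second probe set. *Arnt* is over 0.3 in every column, *Egln1* is 0.54 as reported and -0.01 with the second-brightest probe set, and *Ankrd37* has a value only without the filter.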

How the data were processed

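Pooled RNA of perigonadal WAT was hybridised to 1 array for PeriA Tg and 1 for WT mice. The deposited values are linear intensity values. The authors computed them in GeneChip Operating Software (ver1.4), and MAS5 is named in the submitters' notes. MAS5 merges the probes of a probe set into 1 linear signal and sets each array to a common mean: the 2% trimmed mean was 500.0 on both arrays, and the median signal was 95.4 on the Tg array and 101.1 on the WT array. Genotypes came from the sample labels.

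The signal log ratio was computed from the deposited signals with no pseudocount or further normalization. The 64 control probe sets were left out, and of the other 45037, 34945 had a single symbol in the platform annotation, 932 had several and 9160 had none. Detection calls were not used, and the filter at a signal of 98.2 stood in for them. With 1 array per genotype there was no test and no p-value, and the number of arrays limits the precision. The 10 genes, the gene lists and the markers were chosen with earlier results of these data known. The text names each of the 10 genes, the 3 highest and 3 lowest genes of each pathway list, 8 genes set by name, all partners and the brightest marker of each cell type. *Ep300*, *Cul2*, *Vldlr*, *Lox*, *Edn1* and *Ndrg1* were named after their values were seen, to complete counts of 5. Markers named besides the brightest were also chosen after their values were seen. *Gpi1*, *Gapdh*, *Eno1*, *Epo* and *Bnip3l* had no probe set with a single symbol. Promoters came from RefSeq (GRCm38.p6). The counting of genes past the threshold was tested on simulated data with shifts of 0.5 and 1 in either direction. The simulated noise was smaller than the spread between probe sets, so this checks the counting step only. Alternatives were median centring, quantile normalization, loess (span 0.3), a pseudocount of 25.1, a floor of 56.9, no filter, a filter at 470.5, other choices of probe set, rounding, and a threshold of 1. Scripts ran in Python 3.11.15 (pandas 2.3.3, numpy 2.4.6, statsmodels 0.14.6, scipy 1.17.1), and matplotlib 3.10.9 drew the plots.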

Additional observations from a re-analysis of the deposited data

How the results depend on the processing

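The count of 3 genes over 0.3 became 1 with the second-brightest probe set, 0 at a threshold of 1, 2 with the filter at 470.5 (where *Egln3* had no value) and 2 with the median over probe sets, and was 3 in the other alternatives. The count of 0 genes under -0.3 became 1 without a filter (*Ankrd37*), 1 with the brightest probe set without a suffix (*Hif1a*), 2 with the median over probe sets (*Hif1a* and *Vhl*) and 3 with the second-brightest probe set. Of all genes, 17% were over 0.3 and 25.8% under -0.3 with the second-brightest probe set. The median over probe sets gave 14.8% over 0.3 and 19.5% under -0.3. The filter at 470.5 gave 14.1% over 0.3. The share under -0.3 was 25% without a filter and 18.1% with the brightest probe set without a suffix. At a threshold of 1 the share was 1.02% over 1 and 1.87% under -1. *Egln1* was at -0.011 with the second-brightest probe set, against 0.54 as reported. The median of those of the 10 genes with a value ranged from -0.13 with the second-brightest probe set (8 genes) to 0.045 with median centring (9 genes). The median of the other HIF targets was -0.34 with the second-brightest probe set. That median covers only targets with a second passing probe set, and not all 23 genes behind the 0.087 as reported. The cause of these changes was not tested. Signals near the filter, such as those of the dimmer *Egln3* probe set and the dim *Arnt* probe sets, limit what can be read from a single pair of arrays. No paired analysis was possible because each genotype has 1 array.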
